A study of Mus musculus with 24 samples.

Results

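The heart's natriuretic peptide system was followed as 9 genes: the hormone genes Nppa and Nppb, the processing proteases Corin and Furin, the receptors Npr1, Npr2 and Npr3, the peptide-degrading enzyme Mme and the cGMP-dependent kinase Prkg1. They were matched by gene symbol in the deposited tables, and all 9 were among the 10393 genes measured at 16 h and among the 7723 measured at 72 h. All 9 passed the filter on low counts at both times. Every group consisted of hearts of wild-type mice. The groups harvested 16 h after treatment had received vehicle (V), doxorubicin (DOX, 25 mg/kg), hesperitin (H, 10 mg/kg/day) or the pair of compounds (DOXH). Those harvested at 72 h were V and DOX, with 3 libraries in each of the 6 groups. Doxorubicin is an anthracycline chemotherapy drug that can injure the heart, and hesperitin, usually spelled hesperetin, is a flavanone of citrus fruit. The sources used here give no strain, sex, age, route, number of doses or number of animals behind a sample. The p-values therefore reflect how far these samples lay apart, which may be technical. Hesperitin groups at 72 h were not analysed here.

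Nppa and Nppb encode the precursors of atrial and B-type natriuretic peptide (ANP and BNP), hormones that heart muscle cells release when stretched and that lower blood pressure and promote the excretion of salt and water. In the adult heart Nppa is made mainly by atrial muscle cells, and both genes are textbook markers of a stressed ventricle. The membrane protease corin cleaves the ANP precursor and furin cleaves that of BNP. Both hormones act through the receptor guanylyl cyclase encoded by Npr1, which makes cGMP. Npr2 encodes the related receptor of C-type natriuretic peptide, Npr3 a receptor without a cyclase domain that takes the peptides up and clears them, Mme the membrane enzyme neprilysin that degrades them, and Prkg1 a protein kinase that cGMP switches on.

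In hearts given doxorubicin, Nppb at 16 h was at most 2.30 CPM (read counts scaled to library size) against at least 82.5 CPM with vehicle, Npr3 and Prkg1 were lower and Npr1 was higher. At 72 h the Nppb libraries of the 2 groups overlapped, Npr1 and Corin were higher and Mme was lower. Nppa passed the test in no comparison. Its libraries differed up to 24.5-fold within a group, and in 3 of its 4 highest libraries the atrial marker gene Myl4 was high as well. None of the 9 genes passed in a comparison that involved hesperitin.

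Nppb and Nppa are neighbours on chromosome 4 of the mouse genome GRCm38 and are read from the same strand, Nppb (ENSMUSG00000029019) from 147985788 to 147987205 and Nppa (ENSMUSG00000041616) from 148000722 to 148002079. Sequences upstream of their RefSeq starts are shown because the genes lie side by side and yet parted in these data. The bases come from RefSeq's promoter table on GRCm38.p6, in which all 9 genes were found, and are written 5′ to 3′ on the plus strand. In the first, the 250 bases before the start of Nppa (chr4:148000472-148000721), the capitals mark GATA, the letters read by the factors of that name. It stands once on the plus strand and once as TATC, which is GATA on the other strand. The last capitals there are TATAAA, the letters of a TATA box, and begin 9 bases before the start. In the second, 30 bases upstream of the RefSeq start of Nppb (chr4:147985795-147985824), the capitals mark GATA and, on the other strand, CATTCC, the letters that TEAD factors read. That RefSeq start lies downstream of the first base given above for Nppb, so the 30 bases fall inside the gene's span as given above.
Nppa: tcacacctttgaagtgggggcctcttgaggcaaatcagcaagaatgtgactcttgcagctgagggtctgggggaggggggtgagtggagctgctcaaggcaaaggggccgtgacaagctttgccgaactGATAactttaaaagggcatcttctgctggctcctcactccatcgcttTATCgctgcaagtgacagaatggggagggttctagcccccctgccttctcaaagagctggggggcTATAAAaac
Nppb: GGAATGcagctGATAaatcagaGATAaccc

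Both 250-base windows held 2 GATA matches and 1 TATAAA match. The Nppb window held 1 CATTCC match and the Nppa window none, and AAGTG, the letters that NKX2-5 reads, was found at 2 places in the Nppa window and at none in that of Nppb. Neither window matched the strict form of the CArG box, CCWWWWWWGG with each W an A or a T. Serum response factor reads this element, and looser forms of it were not searched. Searched on both strands, GATA was present in 53.6% of 32841 RefSeq promoter windows of the same length, TATAAA in 12.4%, CATTCC in 12.6%, AAGTG in 40.7% and the CArG box in 1.47%. No match overlapped another in these 2 windows. The windows of Npr1, Npr2, Npr3 and Corin held none of the 5 motifs. These are matches of letters, and no binding was measured here.

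At 16 h the total of expected counts was 17664060 to 19869050 in the H libraries and 9255651 to 11074450 in the remaining 9, so depth and group cannot be told apart for H. At 72 h the totals were 16607805 to 20587578. CPM values were scaled within each time, and levels were not compared between the times. Ventricular markers summed to 10794 to 11684 CPM in V at 16 h, against 76.0 to 99.8 CPM for the 3 atrial markers in that table. The atrial markers Myl7, Sln, Bmp10 and Mybphl were absent from it. The sums hold different genes, so they do not measure how much atrium a library held. Several libraries stood apart. At 16 h the 7 cardiomyocyte markers summed to 37216 to 43895 CPM in V and 19855 to 21150 in DOX, but in DOXH to 25586, 23756 and, in replicate 3, 42665, inside the range of V. The atrial myosin light chain gene Myl4 read 273 and 195 CPM in DOX replicates 1 and 3 at 16 h, and at most 31.4 CPM in the other 10 libraries of that time. At 72 h it read 104 CPM in V replicate 2, 50.4 in DOX replicate 2 and at most 11.3 in the other 4. The third DOX column at 72 h names its group but no replicate of the labels, and it is called the unnumbered library.

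**Figure D1:**
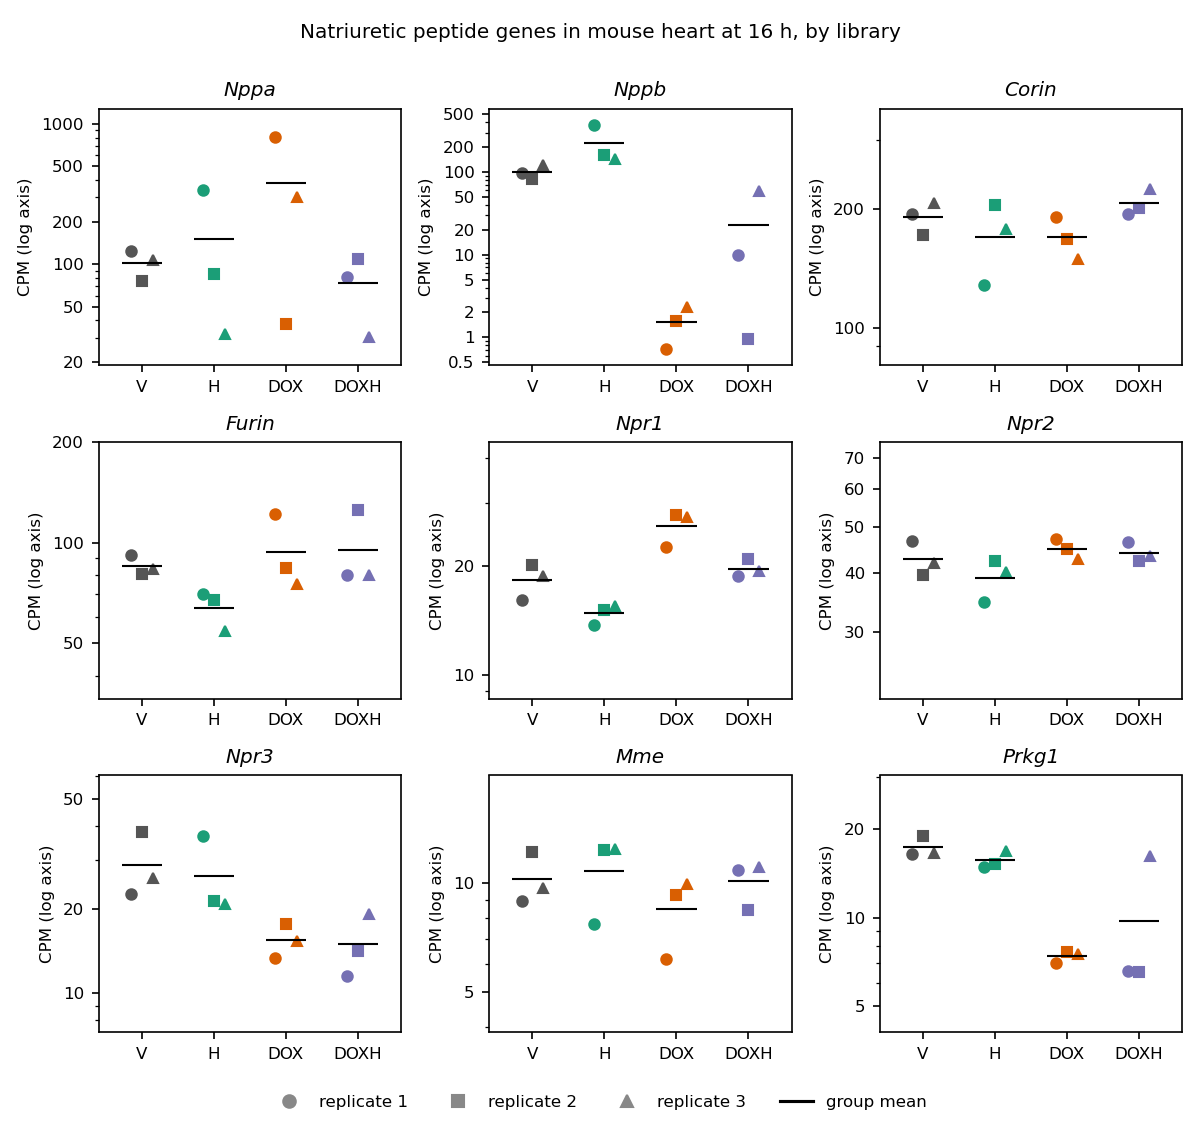
CPM of the 9 genes in the 12 libraries at 16 h, on log axes that differ between panels. Each point is 1 library, its shape the replicate number, and each bar the mean of 3. Nppb sits between 0.73 and 2.30 CPM in DOX, below all 6 V and H libraries, and Prkg1 between 7.02 and 7.62 CPM.

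DOX was first set against V at 16 h, which asks how the drug altered these genes within a day. Of the 9 genes 4 passed the test, 1 higher and 3 lower. That is 44.4% of the 9, against 32.3% of all 10393 genes tested (15.6% higher and 16.6% lower; edgeR, Benjamini-Hochberg adjusted p under 0.05). The median log2 fold change was -0.17 over the 9 and 0.02 over all genes. In 4 of the 9 the DOX and V libraries did not overlap, and those were the 4 that passed. The share of all genes without overlap was not computed, so this count only describes the 9.

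Nppb, the BNP gene, read 97.6, 82.5 and 122 CPM in the 3 V libraries and 0.73, 1.58 and 2.30 CPM in the 3 DOX libraries. Every DOX library lay far below every V library, and the DOX values rest on 8, 18 and 28 reads. The fall was -6.01 ± 1.14 on the log2 scale (SE; edgeR adjusted p = 0.00512), about 64.3-fold, with a 95% interval from -8.63 to -3.39. With 1 of the 12 libraries left out in turn the value ranged from -6.42 to -5.68 and passed each time. In bulk RNA of a whole tissue, fewer cells of a type and less RNA per cell cannot be told apart. The 7 cardiomyocyte markers, genes of the contractile apparatus and calcium release, also fell in DOX, by between 0.34 (Tnnt2) and 1.42 (Actc1) on the log2 scale, and their part in the fall of Nppb was not tested.

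Nppa, the ANP gene, read 125, 75.6 and 107 CPM in V and 805, 37.7 and 301 CPM in DOX. The DOX libraries lay on both sides of V: replicates 1 and 3 above it, replicate 2 below it. The fitted change of 1.89 ± 1.01 did not pass (edgeR adjusted p = 0.168). The atrial marker Myl4 read 273, 9.64 and 195 CPM in the same 3 DOX libraries, against 1.64, 19.1 and 4.71 in V, and Dkk3, likewise rich in atria, 85.3, 23.4 and 72.1 CPM against 2.41, 18.6 and 2.93. Among these 6 libraries the 2 highest in Nppa were the 2 highest in both atrial markers. Another atrial marker, Kcnj3, ranged from 78.0 to 90.0 CPM in DOX and from 62.1 to 71.9 in V. The 3 of 7 atrial markers in this table summed to 111 to 443 CPM in DOX, 76.0 to 99.8 in V, 45.1 to 94.4 in H and 76.0 to 138 in DOXH.

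Without DOX replicates 1 and 3, an alternative chosen after the data were seen, the fitted Nppa difference was -1.43 (edgeR adjusted p = 0.470), on the other side of 0. That fit keeps 1 DOX library, assumed to vary like the other groups, and calls 1 gene of all tested. In it the 4 genes that had passed read -5.98 for Nppb, 0.60 for Npr1, -0.69 for Npr3 and -1.17 for Prkg1, and none passed. Furin read -0.013, on the other side of 0. With Myl4 as a covariate 87 genes passed and none of the 9 did, at -4.98 for Nppb, 0.45 for Npr1, -0.96 for Npr3 and -1.14 for Prkg1. Myl4 itself was higher in DOX than in V at 16 h (4.21 ± 1.28, edgeR adjusted p = 0.0305). The covariate is thus in part tied to the treatment, and the lost calls cannot be assigned to atrial content.

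**Figure D2:**
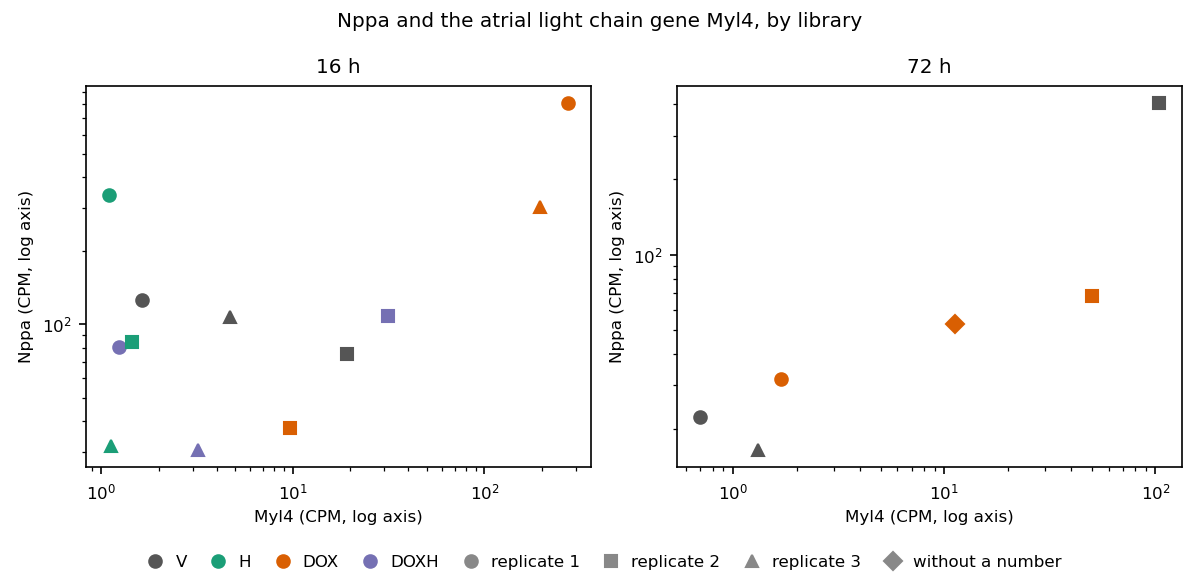
Nppa against the atrial light chain gene Myl4 in each library at 16 h (left, 12 libraries) and 72 h (right, 6 libraries), both in CPM on log axes. Colours mark the groups and shapes the replicate numbers. The 2 DOX libraries at the right edge of the left panel and V replicate 2 at the right edge of the right panel are high in both genes, while H replicate 1 is high in Nppa (338 CPM) at 1.10 CPM of Myl4.

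Npr1, the cyclase receptor shared by both hormones, read 16.1, 20.1 and 18.8 CPM in V and 22.6, 27.7 and 27.4 CPM in DOX, with every DOX library above every V library. It rose by 0.50 ± 0.11 (edgeR adjusted p = 0.00893). The clearance receptor gene Npr3 read 22.8, 37.8 and 25.9 CPM in V and 13.4, 17.7 and 15.4 CPM in DOX, again without overlap but in the other direction. It fell by 0.90 on the log2 scale (SE 0.27, edgeR adjusted p = 0.0268). That call ended without DOX replicate 1 (-0.80, adjusted p = 0.0885), DOX replicate 3 (-0.89, adjusted p = 0.0666) or V replicate 2 (-0.65, adjusted p = 0.104). Per kilobase of transcript, the ratio of Npr1 to Npr3 was 0.902 to 1.24 in V and 2.65 to 3.02 in DOX. The receptor of C-type natriuretic peptide, Npr2, read 39.5 to 46.7 CPM in V and 42.7 to 47.2 CPM in DOX, which overlap (0.07 ± 0.10, adjusted p = 0.576), and its 95% interval of -0.15 to 0.29 leaves room only for small changes.

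Prkg1, the kinase downstream of cGMP, read 16.4, 18.9 and 16.5 CPM in V and 7.02, 7.62 and 7.56 CPM in DOX. The 3 DOX libraries lay close together, each at less than every V library. It fell by 1.22 (SE 0.28, edgeR adjusted p = 0.00903), about 2.34-fold. Prkg1 is abundant in smooth muscle, and of the 7 mural cell markers 1 fell, the potassium channel gene Kcnj8 (-0.62 ± 0.15), beside 16.6% of all genes. Their sum was 778 to 851 CPM in DOX and 801 to 889 in V, which overlap, and the single markers' changes ran from -0.62 for Kcnj8 to 0.80 for Tagln, which did not pass. The part of these cells in the Prkg1 fall was not tested.

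The enzymes that process or degrade the hormones did not pass at 16 h. Corin read 194, 172 and 208 CPM in V and 191, 169 and 149 CPM in DOX (-0.17 ± 0.15, edgeR adjusted p = 0.401). Furin read 92.1, 80.4 and 83.5 CPM in V and 121, 84.0 and 75.0 CPM in DOX (0.13 ± 0.20, adjusted p = 0.644), and its value changed sign to -0.10 without DOX replicate 1, the library where it was highest. Mme read 8.97, 12.2 and 9.74 CPM in V and 6.20, 9.29 and 9.94 CPM in DOX (-0.28 ± 0.23, adjusted p = 0.358). In all 3 the groups overlapped.

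The order of the genes was read per kilobase of the longest annotated transcript. In V at 16 h the hormones led, Nppb at 129 ± 25.6 and Nppa at 119 ± 29.1 CPM per kilobase (SD, n = 3), which do not differ beyond their spread. Corin followed at 39.4 ± 3.77, then Furin at 14.9 ± 1.05, Npr2 at 11.7 ± 0.991, Npr1 at 4.51 ± 0.506 and Npr3 at 4.18 ± 1.15, the last pair within their spread, and Prkg1 at 2.48 ± 0.206 and Mme at 1.28 ± 0.213 closed the row. In DOX at 16 h Nppb stood at 1.97 ± 1.01 CPM per kilobase, below Npr3 at 2.25 ± 0.312 and within the spread of that neighbour. The ratio of Nppa to Nppb per kilobase was 0.791 to 1.16 in V and 997, 21.6 and 118 in DOX, highest in the DOX library richest in Myl4 and above V in all 3, including DOX replicate 2, whose Nppa was below V.

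Hesperitin alone was compared with vehicle at 16 h. None of the 9 genes passed, and 0% of all genes did (edgeR; 664 genes at an unadjusted p under 0.05, and 13 genes by DESeq2). In 3 of the 9 the groups did not overlap, and the share of all genes without overlap was not computed. Nppb read 368, 161 and 143 CPM in H, all above the V libraries (1.15 ± 0.80, edgeR adjusted p = 0.865), and replicate 1 lay highest. Npr1 read 13.7, 15.1 and 15.5 CPM, all below V (-0.31 ± 0.11, adjusted p = 0.718), and Furin 70.0, 67.2 and 54.6 CPM, also all below V (-0.42 ± 0.20, adjusted p = 0.804).

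Nppa in H read 338, 85.0 and 31.7 CPM, which spread to both sides of V (0.56 ± 0.98, edgeR adjusted p = 0.975, and -0.82 without H replicate 1). The high library, H replicate 1, was also the highest of its group in Nppb. Its Myl4 was 1.10 CPM, the lowest of all 12 libraries, and its Dkk3 was 8.28 CPM. The remaining members overlapped V: Corin at 128 to 205 CPM, Npr2 at 34.6 to 42.2, Npr3 at 20.9 to 36.7, Mme at 7.73 to 12.4 and Prkg1 at 14.9 to 16.8.

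Hesperitin with doxorubicin was compared with doxorubicin alone, to see whether the added flavanone altered the drug's effect on these genes. None of the 9 passed, and 0% of all genes did (edgeR; 1958 at an unadjusted p under 0.05, and 390 by DESeq2). Nppb read 10.0, 0.96 and 58.3 CPM in the 3 DOXH libraries, 2 of them above the DOX range, while replicate 2 lay inside it. The fitted difference was 3.88 ± 1.15 (edgeR adjusted p = 0.155, and adjusted p = 0.0130 by DESeq2), and without DOXH replicate 2 it was 4.44 (edgeR adjusted p = 0.0191). That same omission raised the number of genes called to 1554. The order of the 3 DOXH libraries in Nppb was that of their cardiomyocyte marker sums, 25586, 23756 and 42665 CPM.

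Npr1 read 18.7, 21.0 and 19.4 CPM in DOXH, each below every DOX library (-0.39 ± 0.11, edgeR adjusted p = 0.143, and -0.44 with adjusted p = 0.0396 without DOXH replicate 2). Corin read 194, 201 and 226 CPM, each above every DOX library (0.29 ± 0.15, adjusted p = 0.333). Prkg1 read 6.60, 6.53 and 16.2 CPM in DOXH: replicates 1 and 2 lay just under the DOX range, and replicate 3 near V. Its fitted difference of 0.40 ± 0.29 did not pass (adjusted p = 0.471) and became -0.17 without DOXH replicate 3.

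Npr3 read 11.6, 14.1 and 19.2 CPM in DOXH, overlapping DOX (-0.05 ± 0.28, edgeR adjusted p = 0.939), and all 3 libraries stayed below V. Nppa read 80.7, 109 and 30.5 CPM in DOXH, which overlap DOX, with replicate 3 just below its lowest library (-2.38 ± 1.03, adjusted p = 0.250), and the difference was 0.96 without DOX replicates 1 and 3. Myl4 in the same DOXH libraries read 1.24, 31.4 and 3.22 CPM. Furin (79.8, 125 and 80.1 CPM), Npr2 (42.3 to 46.5 CPM) and Mme (8.46 to 11.1 CPM) overlapped DOX, with differences of 0.02 for Furin, -0.03 for Npr2 and 0.26 for Mme.

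The DOXH hearts were also set against V and against H, which share the DOXH libraries with the comparison above, so the 3 are not independent. Against V none of the 9 passed, and 0% of all genes did (edgeR; 1749 at an unadjusted p under 0.05, and 131 by DESeq2). Nppb (-2.12 ± 0.85, adjusted p = 0.265), Npr3 (-0.95 ± 0.27, adjusted p = 0.200) and Prkg1 (-0.83 ± 0.28, adjusted p = 0.217) lay below V in all 3 DOXH libraries. Without DOXH replicate 3 all of them passed, at -4.15 for Nppb (adjusted p = 0.00854), -1.17 for Npr3 (adjusted p = 0.0283) and -1.40 for Prkg1 (adjusted p = 0.000121), and 1674 genes were called.

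Against H none of the 9 passed either, beside 0.154% of all genes (0.115% higher and 0.0385% lower, edgeR). In 5 of the 9 the groups did not overlap, and the share of all genes without overlap was not computed. Nppb (-3.28 ± 0.88, adjusted p = 0.0843) and Npr3 (-0.82 ± 0.27, adjusted p = 0.116) were lower in every DOXH library, and Npr1 (0.41 ± 0.11, adjusted p = 0.0843), Npr2 (0.18 ± 0.09, adjusted p = 0.265) and Furin (0.57 ± 0.20, adjusted p = 0.133) were higher. Without DOXH replicate 3 the count over all genes was 2298, and Nppb (-5.31), Npr1 (0.43), Npr3 (-1.04) and Prkg1 (-1.25) passed, at adjusted p = 0.000229 to 0.0370. The test of whether the doxorubicin change differed with hesperitin passed for none of the 9, beside 0% of all genes (edgeR; 1228 at an unadjusted p under 0.05, and 53 by DESeq2). Its values were -2.94 ± 1.42 for Nppa (adjusted p = 0.450), 2.73 ± 1.43 for Nppb (adjusted p = 0.479) and 0.45 ± 0.22 for Corin (adjusted p = 0.445).

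**Figure D3:**
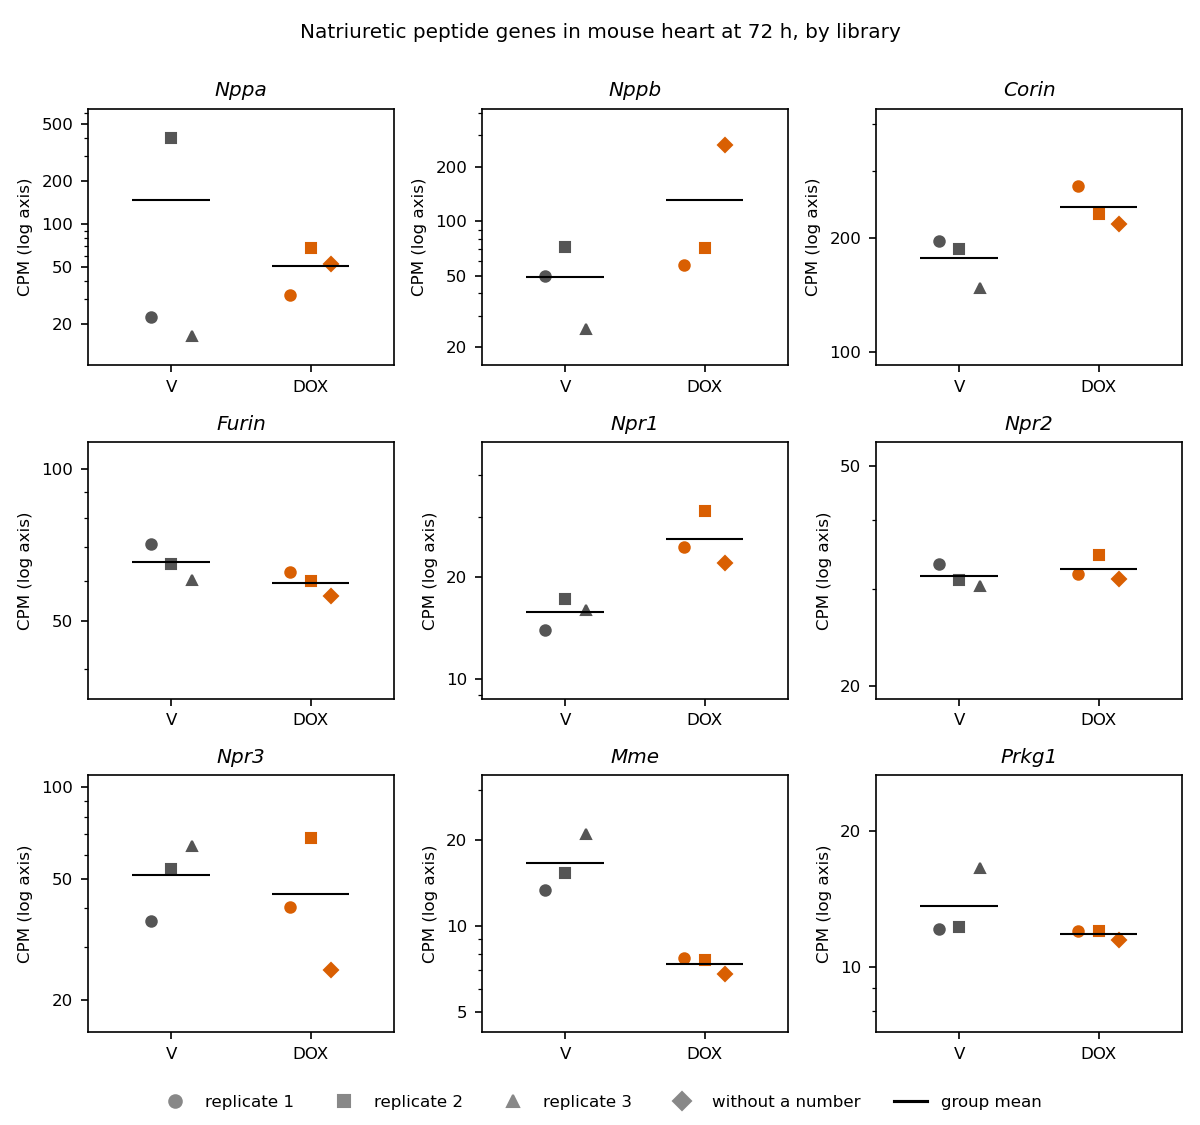
CPM of the 9 genes in the 6 libraries at 72 h, on log axes that differ between panels. Each point is 1 library, its shape the replicate number, and each bar the mean of 3. Npr1 and Corin are higher in all 3 DOX libraries and Mme is lower, while Nppa is high in V replicate 2 (404 CPM) and Nppb in the unnumbered DOX library (263 CPM).

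At 72 h doxorubicin was again compared with vehicle, now 3 days after the drug. Of the 9 genes 3 passed, 2 higher and 1 lower. That is 33.3% of the 9, against 53.7% of the 7703 genes tested (26.5% higher and 27.2% lower, edgeR). The median log2 fold change was -0.13 over the 9 and 0.01 over all genes. In 4 of the 9 the groups did not overlap: Npr1, Corin, Mme and Prkg1. The share of all genes without overlap was not computed.

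Npr1 read 14.0, 17.2 and 16.0 CPM in V and 24.5, 31.2 and 22.1 CPM in DOX, all 3 above V. It rose by 0.72 ± 0.14 (edgeR adjusted p = 0.00242) and passed with any 1 of the 6 libraries left out. Npr1 is also made by endothelial cells. Of the 8 endothelial markers 5 rose and 1 fell, Cdh5, at this time, beside 26.5% of all genes higher and 27.2% lower. Their sums were 799 to 871 CPM in DOX and 641 to 671 in V. At 16 h, where Npr1 also rose, none of the 8 rose and 2 fell, beside 15.6% of all genes higher and 16.6% lower. The sums there were 743 to 803 CPM in DOX and 792 to 814 in V. The part of these cells in the Npr1 change was not tested.

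Corin, the protease of the ANP precursor, read 196, 187 and 148 CPM in V and 275, 232 and 218 CPM in DOX, without overlap. It rose by 0.45 ± 0.13 (edgeR adjusted p = 0.0159), and the call ended without DOX replicate 1 (0.35, adjusted p = 0.0633) or V replicate 3 (0.33, adjusted p = 0.0617). Corin is a gene of heart muscle cells, and the 7 cardiomyocyte markers summed to 10924 to 13617 CPM in DOX against 28874 to 36749 in V. Of the 7, 5 were lower and none higher, beside 27.2% of all genes lower and 26.5% higher. Their part in the Corin change was not tested.

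Mme, the neprilysin gene, read 13.4, 15.4 and 21.1 CPM in V and 7.71, 7.62 and 6.79 CPM in DOX. The DOX libraries lay close together and well below V. It fell by 1.17 (SE 0.17, edgeR adjusted p = 0.000553), about 2.26-fold, and passed with any 1 library left out. Neprilysin is also found on fibroblasts and neutrophils. The 6 fibroblast markers in the test gave 2 higher and 1 lower, beside 53.7% of all genes called. Their sums were 970 to 1369 CPM in DOX and 539 to 708 in V. The 3 of 6 neutrophil markers in that table summed to 26.4 to 133 CPM in DOX and 0.957 to 1.98 in V. The part of these cells in the Mme change was not tested.

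Nppb at 72 h read 49.8, 72.4 and 25.5 CPM in V and 57.3, 70.9 and 263 CPM in DOX. DOX replicates 1 and 2 lay inside the range of V and the unnumbered library far above it. The fitted difference of 1.41 ± 0.81 did not pass (edgeR adjusted p = 0.209) and was 0.38 without the unnumbered library. Nppa read 22.4, 404 and 16.5 CPM in V and 31.8, 68.6 and 52.7 CPM in DOX. V replicate 2 lay above all DOX libraries and the other 2 V libraries below them.

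The difference for Nppa was -1.53 ± 1.47 (edgeR adjusted p = 0.429). Without V replicate 2 it was 1.38 with an adjusted p of 0.0349, so 1 library set its direction and its call. V replicate 2 was also the highest of the 6 libraries in 6 of the 7 atrial markers, among them Myl4 at 104 CPM, Bmp10 at 80.0, Myl7 at 51.6, Sln at 29.8 and Mybphl at 10.9, while in V replicates 1 and 3 these 5 read 0 to 1.31 CPM. Among the DOX libraries, replicate 2 was highest in Nppa and in Myl4 (50.4 CPM), Myl7 (24.6) and Sln (21.0), the unnumbered library came next and replicate 1 was lowest. Bmp10, which is restricted to atrial muscle in adults, read 0 in all 3 DOX libraries. Without V replicate 2 and DOX replicate 2, chosen after the data were seen, Nppa was higher in DOX by 1.12 (adjusted p = 0.0399), and the calls of Npr1 (0.63), Corin (0.52) and Mme (-1.25) stood.

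Reads of Nppa may include those of the antisense gene Gm13054, which overlaps it on the other strand of chromosome 4. The strand setting is not given in the sources used here, so reads of the pair cannot be told apart. Gm13054 was in the table of 72 h only, at 2.05% to 5.67% of the Nppa count per library, and with both summed the Nppa difference was -1.55 (edgeR adjusted p = 0.425).

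Npr3 at 72 h read 36.4, 53.7 and 64.1 CPM in V and 40.4, 68.2 and 25.1 CPM in DOX, which overlap widely (-0.21 ± 0.42, edgeR adjusted p = 0.701, and 0.08 without the unnumbered library). The order of the 3 DOX libraries in Npr3 was also that of the endocardial marker Cytl1, at 22.2, 74.2 and 10.0 CPM, and Cytl1 in V read 6.88, 14.4 and 16.6 CPM, in the order of Npr3 there too. At 16 h, where Npr3 was lower in DOX, none of the 3 endocardial markers passed, and their directions differed. They were Cytl1 (0.87 ± 0.55, edgeR adjusted p = 0.235), Plvap (0.37 ± 0.25, adjusted p = 0.261) and Tmem100 (-0.89 ± 0.41, adjusted p = 0.114). Their sums were 54.4, 32.5 and 38.7 CPM in DOX, lowest in replicate 2, the DOX library highest in Npr3. In V the sums were 43.8, 47.7 and 33.9 CPM, highest in replicate 2, the V library highest in Npr3. The part of these cells in the Npr3 values was not tested. The ratio of Npr1 to Npr3 per kilobase was 0.424 to 0.652 in V and 0.776 to 1.49 in DOX, higher in DOX without overlap, as at 16 h. Prkg1 read 12.1, 12.3 and 16.6 CPM in V and 11.5 to 12.02 CPM in DOX, below V by a narrow margin (-0.21 ± 0.14, adjusted p = 0.225).

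Furin (60.1 to 70.9 CPM in V, 55.8 to 62.5 in DOX; -0.13 ± 0.09, edgeR adjusted p = 0.208) and Npr2 (30.4 to 33.3 CPM in V, 31.2 to 34.6 in DOX; 0.04 ± 0.08, adjusted p = 0.664) overlapped between the groups. For Npr2 the 95% interval was -0.18 to 0.27, as narrow as at 16 h. Per kilobase the order in V at 72 h was Nppa at 171 ± 256, Nppb at 63.0 ± 30.1, Corin at 36.4 ± 5.30, Furin at 11.4 ± 0.944, Npr2 at 8.64 ± 0.418, Npr3 at 7.46 ± 2.03, Npr1 at 3.88 ± 0.402, Mme at 2.07 ± 0.497 and Prkg1 at 1.96 ± 0.365 (CPM per kilobase, SD, n = 3). The hormones and Corin cannot be ordered within their spread, nor Npr2 and Npr3, nor Mme and Prkg1.

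**Figure D4:**
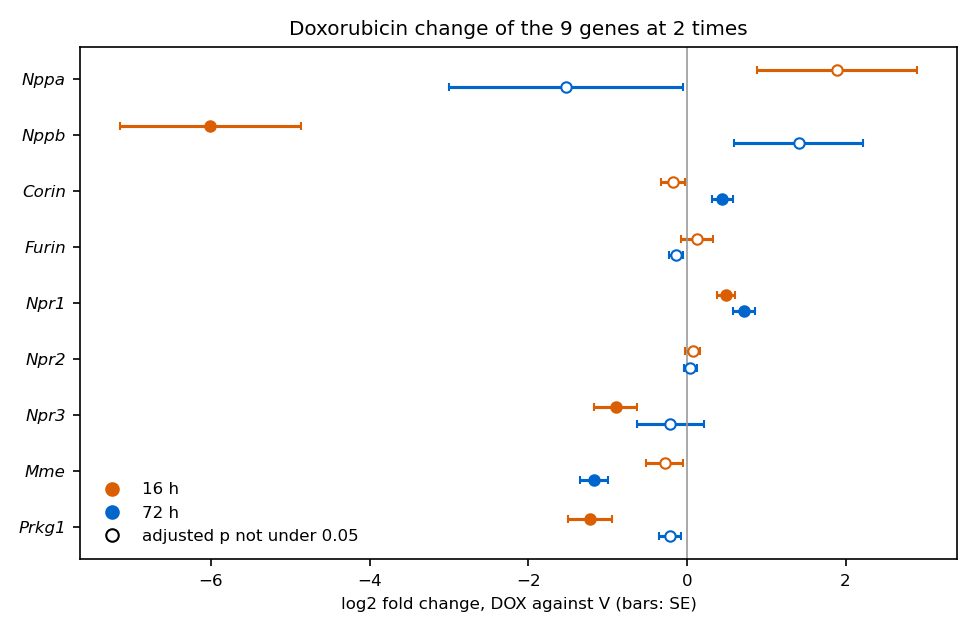
Log2 fold change of DOX against V for the 9 genes at 16 h and 72 h, with bars of 1 SE. Filled points passed the test (edgeR adjusted p under 0.05) and open points did not. Nppb goes from -6.01 to 1.41, Npr1 is right of 0 at both times, and the bars of Nppa are the widest at 72 h.

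Whether the doxorubicin change itself differed between the times was tested over the 7407 genes that the tables share. Of the 9 genes 3 passed, 2 higher at 72 h than at 16 h and 1 lower, which is 33.3%, against 26.5% of all genes tested (12.6% higher and 13.8% lower, edgeR). Nppb differed by 7.41 ± 1.46 (edgeR adjusted p = 0.00298), from -6.01 at 16 h to 1.41 at 72 h. It passed with each of the 18 libraries left out in turn, at 6.37 to 7.82. Prkg1 differed by 1.01 ± 0.34 (adjusted p = 0.0399), from -1.22 to -0.21, and Mme by -0.90 ± 0.32 (adjusted p = 0.0459), from -0.28 to -1.17.

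The latter 2 lay close to the threshold. With 1 library left out, Prkg1 passed in 7 of 18 fits (0.93 to 1.17, adjusted p up to 0.0873) and Mme in 6 of 18 (-1.09 to -0.69, adjusted p up to 0.124). Corin, at 0.61 ± 0.22, just missed (edgeR adjusted p = 0.0501) and passed in 7 of 18 fits with 1 library left out. These fits thus do not set it apart from Prkg1 and Mme. Npr1 differed by 0.21 ± 0.18 (adjusted p = 0.402), so its rise was not shown to differ between the times, and Npr3 by 0.68 ± 0.48 (adjusted p = 0.304). The Nppa difference of -3.43 ± 1.70 did not pass (adjusted p = 0.149) and was 0.01 with Myl4 as a covariate.

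**Figure D5:**
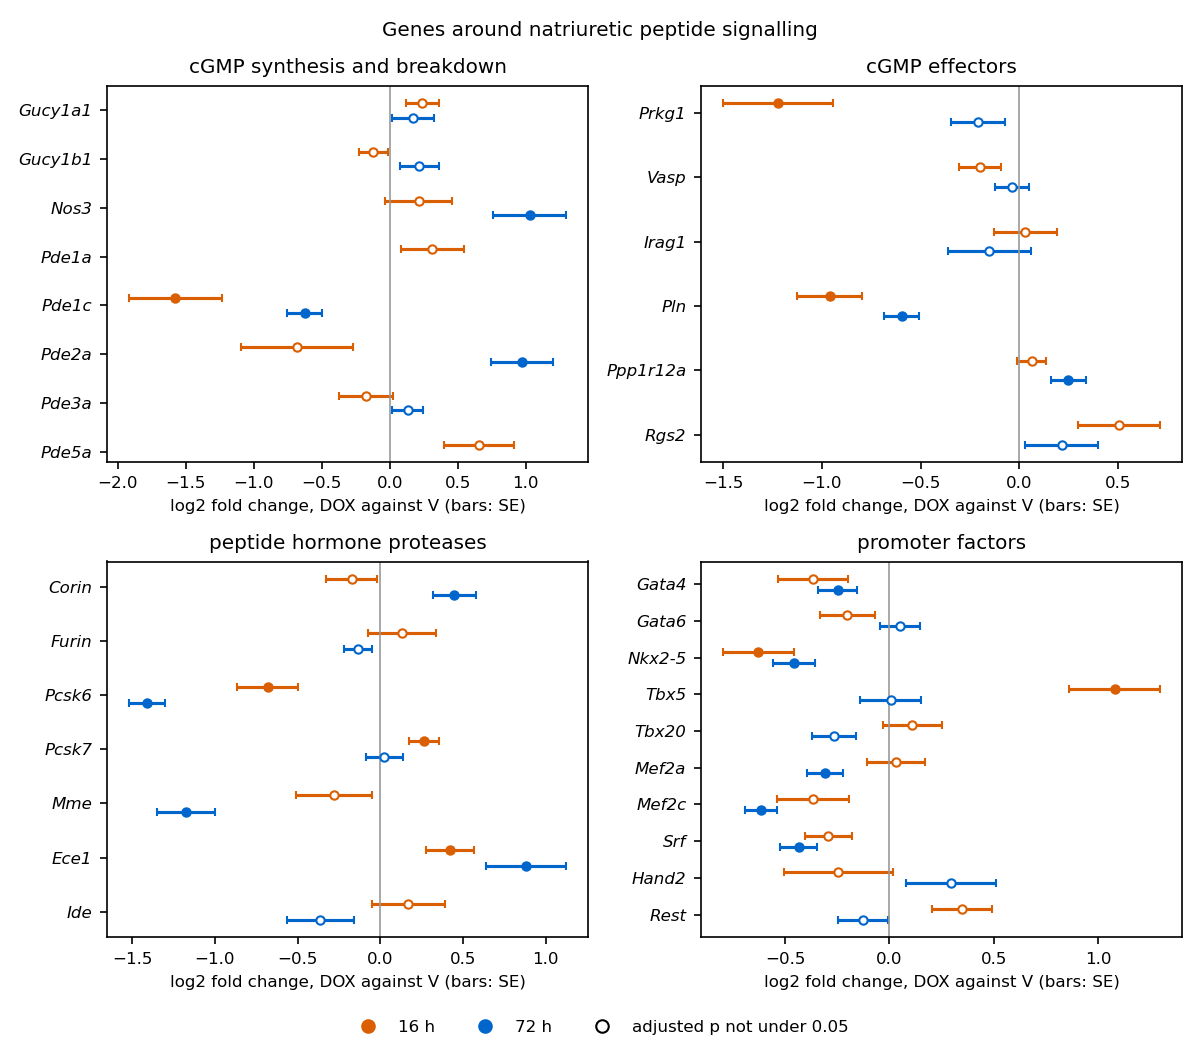
Log2 fold change of DOX against V at 16 h and 72 h for tested genes of 4 lists around natriuretic peptide signalling, with bars of 1 SE. Filled points passed the test (edgeR adjusted p under 0.05). Pde1c, Pln and Pcsk6 are left of 0 and filled at both times, and Tbx5 is filled at 16 h only.

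Around the 9 genes, 4 lists of the pathway were read from the same fits. Of 11 genes that make or break down cGMP, 8 were tested at 16 h and 1 fell, the phosphodiesterase gene Pde1c (-1.58 ± 0.34, edgeR adjusted p = 0.00745), with a list median of 0.05 beside 0.02 over all genes. Over all genes 32.3% were called at 16 h (16.6% lower) and 53.7% at 72 h, and the counts of the 4 lists are to be read against those shares. At 72 h 6 were tested, 2 rose and 1 fell (median 0.19 beside 0.01). Pde2a, whose enzyme is stimulated by cGMP, rose by 0.97 ± 0.23 (adjusted p = 0.0111) and Nos3, the endothelial nitric oxide synthase gene, by 1.03 ± 0.27 (adjusted p = 0.0190), and Pde1c fell by 0.63 (SE 0.13, adjusted p = 0.00363). The Pde2a change differed between the times by 1.65 ± 0.54 (adjusted p = 0.0347). The soluble guanylyl cyclase subunits Gucy1a1 and Gucy1b1 passed at neither time.

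Of 9 effectors of cGMP 6 were tested at each time. At 16 h 2 fell, Prkg1 and phospholamban, Pln, which brakes the calcium pump and is a target of the kinase (-0.96 ± 0.16, edgeR adjusted p = 0.00342), with a list median of -0.08. At 72 h Pln fell again (-0.60 ± 0.09, adjusted p = 0.000601) and Ppp1r12a, a subunit of myosin phosphatase, rose by 0.25 ± 0.09 (adjusted p = 0.0424), with a median of -0.09. Rgs2, a regulator of G protein signalling that the kinase activates, was higher in DOXH than in H by 1.32 ± 0.21 (adjusted p = 0.0442), and no other gene of the 4 lists passed in a comparison with DOXH or H. No gene at all passed in DOXH against H with the compared groups alone, without H replicate 3, without V replicate 1, without the DOX libraries high in Myl4, or with Myl4 as a covariate, so that call was lost there.

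Of 11 proteases of peptide hormones, Corin, Furin and Mme among them, 7 were tested at each time. At 16 h 2 rose and 1 fell (median 0.13). Pcsk6, a relative of furin that activates corin, fell by 0.68 (SE 0.18, edgeR adjusted p = 0.0175), Ece1, the endothelin-converting enzyme gene, rose by 0.42 ± 0.15 (adjusted p = 0.0446) and Pcsk7 by 0.26 ± 0.09 (adjusted p = 0.0450). At 72 h 2 rose and 2 fell of the 7, beside 53.7% of all genes called (median -0.13): Pcsk6 went from 52.2 to 61.3 CPM in V to 18.7 to 24.0 CPM in DOX (-1.41 ± 0.11, adjusted p = 3.21e-05), beside Mme, Corin and Ece1. The change of Pcsk6 was lower at 72 h than at 16 h by -0.74 ± 0.24 (adjusted p = 0.0330).

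A list of 10 transcription factors known to act on the Nppa and Nppb promoters, which is not complete, was tested in full. At 16 h 1 rose and 1 fell (median -0.22 beside 0.02): Tbx5 rose by 1.08 ± 0.22 (edgeR adjusted p = 0.00553) and Nkx2-5 fell by 0.63 (SE 0.17, adjusted p = 0.0173). At 72 h none rose and 5 of 10 fell, beside 53.7% of all genes called and 27.2% lower (median -0.26 beside 0.01), with Mef2c at -0.62 ± 0.08 (adjusted p = 0.000208), Srf at -0.44 ± 0.09 (adjusted p = 0.0028) and Nkx2-5 at -0.46 ± 0.10 (adjusted p = 0.00433). The change of Tbx5 differed between the times by -1.08 ± 0.29 (adjusted p = 0.0123). Gata4 and Gata6, whose letters stand in capitals in both printed sequences, did not pass at 16 h, and Gata4 fell at 72 h (-0.25 ± 0.09, adjusted p = 0.0475).

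The genes whose pattern over the 12 libraries at 16 h was most like that of Nppb were found by the root mean square difference of log2 CPM, each gene centred on its own mean in V. They were Dbp (1.54), a clock-controlled transcription factor gene, Lrrc15 (1.88), Tuba4a (2.02) and the heart muscle gene Lrrc10 (2.03), against 3.73 for a gene without any change. Dbp read 75.0 to 85.2 CPM in V, 67.3 to 111 in H, 3.92 to 9.12 in DOX and 24.8, 4.18 and 50.7 CPM in the 3 DOXH libraries, so it shared with Nppb the low DOX values, the lowest DOXH value in replicate 2 and the highest in replicate 3. For Nppa the 4 nearest were Vcan (0.93), Mfap5 (0.95), Pi16 (0.96) and Mfap4 (0.99), against 1.38 for a flat pattern, genes of the extracellular matrix or of fibroblasts. None of these 4 passed in DOX against V at 16 h, and all were highest of the 3 DOX libraries in replicate 1 and lowest in replicate 2, as Nppa was. The genes were picked for likeness over these same libraries, so the shared orders and low values follow in part from the picking. These likenesses are descriptions over libraries that share groups.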

How the data were processed

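RNA of wild-type mouse hearts (isolated with TRI Reagent, RNA integrity number above 8, poly(A)-selected, single-end Illumina reads) was measured in 24 samples (8 groups of 3), per the labels' protocols and the design text, and 18 libraries of 6 groups were used. The authors deposited expected counts, estimated numbers of reads per gene, in 1 table per time. RSEM, DESeq2, GRCm38 and mm10 are named in the submitters' processing notes. The sources used here do not give versions, annotation, strand setting or the rule by which genes were left out before deposit, so a gene in 1 table alone says nothing about the other time. At 72 h 6 columns match no label and were not used, which made the planned fit of all matched groups a fit of V and DOX. One DOX column there names the group but carries a number of no label. Splitting of reads between related genes by RSEM can affect expected counts, and the antisense overlap at Nppa is described with its values.

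Expected counts were rounded to whole numbers and tested with edgeR 4.0.16 (R 4.3.3): TMM factors, filterByExpr (10393 genes tested at 16 h, 7703 at 72 h, 7407 in both), robust quasi-likelihood fits of group means over 12, 6 and 18 libraries, Benjamini-Hochberg adjusted p over every gene tested, threshold 0.05. The SE is the absolute log2 change divided by the square root of F. CPM are TMM-scaled, and log2 CPM used a prior count of 2. Gene identifiers were matched to GENCODE (GRCm38) for positions and lengths, and sequences came from RefSeq (GRCm38.p6). The pipeline was tested on simulated data.

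Named were all 9 members, per list and comparison at most the 3 genes with the smallest p past the threshold, cell type markers beside a member, and the 4 genes most like Nppa and Nppb. Ece1 at 72 h, Gata4, Gata6, Gucy1a1 and Gucy1b1 were named after their values were seen. The members and lists were chosen with earlier results of these data known. The alternatives tried were DESeq2 1.42.0, upper quartile or RLE factors, a filter at a mean of 5 CPM or none, a block for the replicate number, the compared groups alone and each library left out. Leaving out the libraries highest in Myl4, Myl4 as a covariate and the summed Nppa and Gm13054 counts were added after the data were seen. Every pair of libraries of a group differed by more than sampling noise.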

Additional observations from a re-analysis of the deposited data

Results flagged for a closer look

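For 3 of the 9 genes the doxorubicin change at 72 h differed from that at 16 h in a test of the difference itself (edgeR, Benjamini-Hochberg adjusted), beside 26.5% of the 7407 genes tested. Nppb differed by 7.41 ± 1.46 on the log2 scale (adjusted p = 0.00298), with all 3 DOX libraries below V at 16 h and none below the lowest V library at 72 h. Prkg1 differed by 1.01 ± 0.34 (adjusted p = 0.0399, passed in 7 of 18 fits with 1 library left out), with all 3 DOX libraries below V at both times. Mme differed by -0.90 ± 0.32 (adjusted p = 0.0459, passed in 6 of 18 such fits), with all 3 DOX libraries below V at 72 h and 1 of 3 below the lowest V library at 16 h. The Mme call was lost with the replicate block (edgeR adjusted p = 0.0979), a fit that also leaves out the unnumbered DOX library. The times were measured in separate tables with vehicle groups of their own.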

How the results depend on the processing

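Over all alternatives run for the single genes, 1385 of 1502 values kept their direction and their side of the threshold. With the direction kept, 44 lost a call and 26 gained one. A further 47 changed sign. Among those, Nppa at 72 h also gained a call without V replicate 2 and without the high-Myl4 libraries of that time. The Nppb fall at 16 h and its difference between the times kept their calls under every normalization, filter and tool tried, with the replicate block and with each library left out. The Nppb fall lost its call with the high-Myl4 libraries left out or with the Myl4 covariate.

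Leaving out DOX replicates 1 and 3 at 16 h, which leaves 1 DOX library, gave 1 gene in DOX against V and 0 of the 9, 0 genes in DOXH against H, and 1210 in the difference between the times with 1 of the 9. Values of the opposite sign were -1.43 for Nppa and -0.013 for Furin in DOX against V, 0.96 for Nppa in DOXH against DOX, and 0.39 for Nppa and -0.12 for Npr3 in the interaction. With the Myl4 covariate the counts were 87 genes in DOX against V with 0 of the 9, 0 in DOXH against H, and 1 of the 9 in the difference between the times, with Furin at -0.16 in DOX against V, Npr3 at 0.014 in DOXH against DOX and Nppa at 0.013 in the difference between the times. Without the 2 high-Myl4 libraries of 72 h, Nppa was 1.12 and Npr2 -0.010 in DOX against V and 1 of the 9 passed in the difference. The cause was not tested.

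DESeq2 called 13 genes in H against V, 390 in DOXH against DOX (1 of the 9), 131 in DOXH against V (1 of the 9), 718 in DOXH against H (3 of the 9) and 53 in the interaction. It gave no adjusted p for Nppa at 72 h. Fits of the compared groups alone called 1 gene in DOXH against DOX, 1 in DOXH against V and 0 in DOXH against H, where upper quartile factors called 55.

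The labels' replicate numbers are shared between groups, and the labels do not say that they pair the samples. Over 18 same-numbered pairs at 16 h the correlation of deviations from the group means was -0.42 to 0.25. At 72 h it was 0.12 and 0.25 in the 2 same-numbered pairs and -0.20 to 0.00093 in the 4 others, which is too few pairs to settle the pairing. With the replicate block 3064 genes passed in DOX against V at 16 h, 3838 at 72 h and 7 in DOXH against H, Npr3 at 72 h was 0.25, and Mme in the difference between the times was -0.72 (edgeR adjusted p = 0.0979). At 72 h and in that difference the block fits also left out the unnumbered DOX library, which has no replicate number. Leaving out that library alone gave 0.077 for Npr3 at 72 h and -0.86 for Mme in the difference (edgeR adjusted p = 0.0823). The block and the loss of that library cannot be told apart there. Among the 9 genes the block changed no other call.

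With each library left out, the counts ranged from 1928 to 4031 in DOX against V at 16 h (2021 without V replicate 3, 2230 without DOX replicate 1), 0 to 47 in H against V, 0 to 1554 in DOXH against DOX, 0 to 1674 in DOXH against V, 0 to 2298 in DOXH against H (192 without H replicate 1) and 0 to 254 in the interaction, where 254 came without DOXH replicate 2. Of the 9 genes, 0 to 2 passed in DOXH against DOX, 0 to 3 in DOXH against V, 0 to 4 in DOXH against H and 1 to 4 in the difference between the times. Ranges that crossed 0 were these. In DOX against V Furin was -0.10 to 0.27 at 16 h, and at 72 h Nppa was -2.06 to 1.38 and Npr3 -0.65 to 0.077. In H against V Corin was -0.32 to 0.0025, Mme -0.039 to 0.26, Nppa -0.82 to 1.04 and Npr3 -0.45 to 0.12. In DOXH against DOX Furin was -0.22 to 0.26, Npr2 -0.069 to 0.0099, Npr3 -0.27 to 0.11 and Prkg1 -0.17 to 0.62. In DOXH against V Furin was -0.092 to 0.26, Mme -0.11 to 0.12 and Npr2 -0.0088 to 0.11. In DOXH against H Mme was -0.28 to 0.022 and Nppa -1.53 to 0.34. In the interaction Mme was -0.0044 to 0.32, Npr1 -0.17 to 0.0052, Npr3 -0.17 to 0.40 and Prkg1 -0.027 to 0.77. In the difference between the times Npr2 was -0.11 to 0.015. Nppb in DOX at 16 h rests on 8 to 28 reads per library.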
